A study of Homo sapiens with 12 samples.

Results

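The genes described here are 38 members of the kinesin superfamily and its partner subunits: 34 motor genes named KIF or KIFC, the adaptor subunit gene KIFAP3 and the kinesin light chain genes KLC1, KLC2 and KLC4. They were listed by gene symbol, and the list was chosen by a measured value, the lower read count of KIF5B after POLR3A siRNA. Estimated read counts were summed over the transcripts of each gene. A matched transcript was found for 37 of the 38, among 34318 genes in all, and KIF15 was not analysed here. By what their products are best known for, 19 were placed in a transport class, 12 of those analysed in a mitotic class and 6 in a class of cilium and signalling kinesins.

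Kinesins are motor proteins that use ATP to walk along, slide or take apart microtubules. Kinesin-1 is a tetramer of 2 heavy chains (KIF5A, KIF5B or KIF5C) and 2 light chains (KLC proteins) that bind cargo, and it carries mitochondria, lysosomes and vesicles toward the cell periphery. Mitotic kinesins build the spindle, move chromosomes and form the midzone through which dividing cells split, and other family members act in the cilium, the antenna-like organelle of many animal cells, or in signalling from it.

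All 12 messenger RNA libraries came from HEK293T, an established and easily transfected human embryonic kidney line that carries the SV40 large T antigen. Cells transfected with a siRNA against POLR3A, the gene for the largest subunit of RNA polymerase III (siPOLR3A, 3 libraries), were compared with cells given a control siRNA (siControl, 3 libraries) at 2 days. Cells exposed to 25 µM ML60218, a small-molecule inhibitor of RNA polymerase III (3 libraries), were compared with cells exposed to the vehicle, 0.1% DMSO (3 libraries), at 4 hours. No genotype change was labelled in any group, depletion was by transient transfection, and the labels do not say whether libraries of a group came from separate cultures, so that p-values measure the spread between these libraries only.

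Libraries held between 37008325 and 49479476 estimated reads. POLR3A itself was at 92.2, 93.5 and 86.8 CPM (read counts scaled to library size) in the siControl libraries and at 19.3, 19.04 and 14.6 CPM in the siPOLR3A libraries. The 10 markers fixed for the line were all above the count filter, and their summed level was 1237 to 1268 CPM in siControl, 799 to 818 CPM in siPOLR3A, 1051 to 1074 CPM in DMSO and 1118 to 1134 CPM in ML60218. Among markers of differentiated kidney tubule, 2 passed the filter (summed level 56.0 to 65.9 CPM in siControl and 68.8 to 74.6 CPM in siPOLR3A, 21.6 to 25.1 CPM in DMSO and 24.5 to 27.6 CPM in ML60218), and the defining genes UMOD and AQP2 did not. Fibroblast markers summed to 51.3 to 53.1 CPM and 48.4 to 50.5 CPM in the siRNA groups (5 of 6 passed) and to 34.1 to 36.0 CPM and 30.1 to 35.2 CPM in the compound groups (4 of 6 passed). Leukocyte markers summed to at most 8.28 CPM in any library, with PTPRC and CD3E below the filter. The lower sum of the line's markers in siPOLR3A came with NEFM (336 and 128 CPM), VIM (486 and 339 CPM) and NEFL (215 and 135 CPM), whereas KRT18, CDH1 and EPCAM were higher there. The part of these differences in the results was not tested.

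Per transcript length, KIF1C, the kinesin-1 heavy chain gene KIF5B and the light chain gene KLC1 were the most abundant of these genes in siControl and in DMSO cells, and the heavy chain genes KIF5C and KIF5A were among the less abundant. In siControl cells, KIF1C was at 81.5 ± 3.78 TPM (an abundance scaled for transcript length and library size; mean ± SD, n = 3), KIF5B at 78.3 ± 3.005 TPM and KLC1 at 75.6 ± 3.20 TPM, and neighbours in this order overlapped between libraries. KIF5C was at 9.64 ± 0.966 TPM and KIF5A at 4.02 ± 0.127 TPM. The next levels belonged to mitotic motors: KIF23 at 46.9 ± 1.42 TPM, KIF11 at 44.1 ± 0.875 TPM, KIF2C at 43.4 ± 1.61 TPM and KIF20A at 43.1 ± 0.845 TPM. KIF26B was lowest, at 0.400 ± 0.0359 TPM. The median level over a class was 14.7 TPM for transport, 28.6 TPM for mitotic and 5.11 TPM for cilium and signalling kinesins in siControl cells, and 16.5, 33.9 and 6.60 TPM in DMSO cells. Of the 36 neighbouring pairs in the order of levels, 23 overlapped between libraries in siControl and 17 in DMSO. The first place of KIF1C rested on short transcripts: its 7917-base transcript KIF1C-201 was at 31.7 ± 0.770 TPM, and KIF1C-203 and KIF1C-204, of 726 and 799 bases, added 24.8 ± 3.38 and 23.6 ± 0.643 TPM. KIF5B was almost wholly its 5866-base transcript KIF5B-201, at 78.2 ± 3.15 TPM. The place of KLC1 also drew on short transcripts. Its 519-base retained-intron transcript KLC1-215 was at 11.6 ± 0.837 TPM and the 630-base KLC1-214 at 10.7 ± 1.02 TPM. The 3250-base KLC1-206 was at 7.99 ± 1.21 TPM.

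Among the siRNA groups, KIF5B and KIF1C stood out as lower by more than 2-fold in siPOLR3A, KIF3C was lower by 1.58-fold, and the minor motor KIFC3 was higher by 1.67-fold. The other members differed by less. Since the list was drawn up from this contrast, its values are given as a description without a test. All 37 members passed the filter on low counts. At a Benjamini-Hochberg adjusted p under 0.05 in edgeR's quasi-likelihood fit over all genes, 11 were marked higher and 10 lower in siPOLR3A, counts from which nothing is read because the contrast chose the list. They stand beside 27.4% higher and 29.2% lower (56.6% in either direction) among all 15404 genes tested. Groups did not overlap for 22 members, beside 63.4% of all genes, and a call of at least 2-fold was made for 2, beside 3.82%. The median log2 difference over the members was 0.0015, and that over all genes 0.0054. In the transport class 6 were called higher and 7 lower (median −0.013), in the mitotic class 3 and 3 (median 0.0051), and in the cilium and signalling class 2 and 0 (median 0.11).

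**Figure D1:**
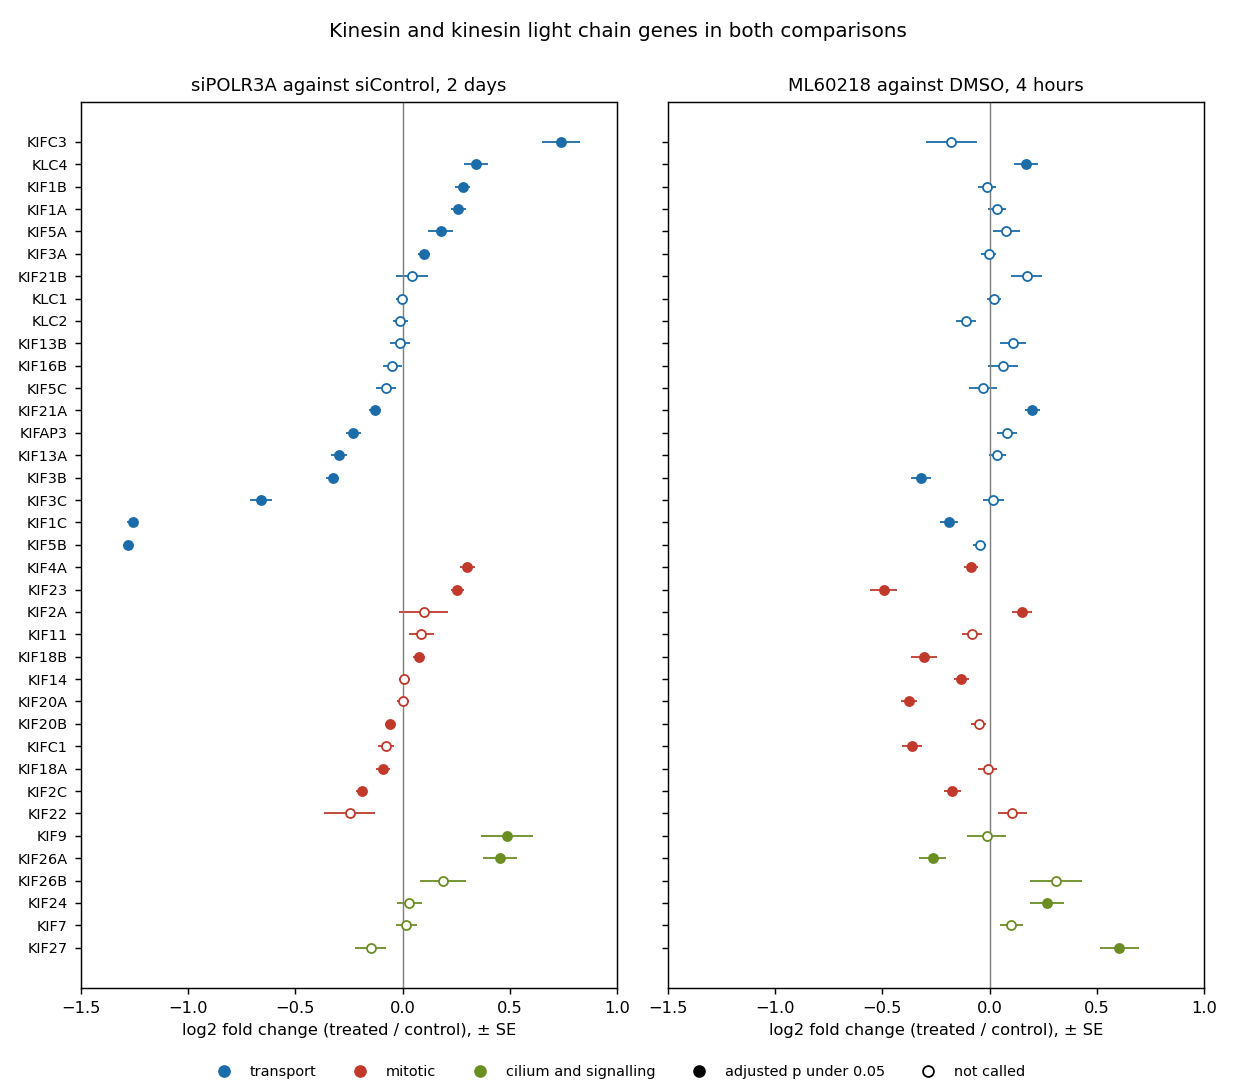
Log2 fold change of each kinesin and light chain gene, siPOLR3A against siControl on the left and ML60218 against DMSO on the right, with bars of ± 1 SE, filled points for genes called and colours for the classes. KIF5B (−1.28) and KIF1C (−1.26) lie far to the left after the siRNA, while with ML60218 7 of the 12 mitotic genes are filled and left of 0.

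KIF5B, the ubiquitous heavy chain of kinesin-1 (ENSG00000170759, GRCh38 chr10:32009010-32056431, minus strand), was at 366, 368 and 373 CPM in siControl libraries and at 152, 152 and 152 CPM in siPOLR3A libraries. The groups were far apart and the libraries of each nearly identical, a log2 difference of −1.28 (SE 0.022). Its transcript KIF5B-201 was at 78.2 ± 3.15 TPM in siControl and 32.7 ± 0.307 TPM in siPOLR3A. The neuronal heavy chain KIF5A was at 20.1, 22.1 and 22.2 CPM and at 24.3, 25.6 and 22.9 CPM, a log2 difference of 0.18 (SE 0.058), with no overlap and a narrow gap. Its adjusted p missed the threshold without siControl replicate 1, without siPOLR3A replicate 1 or 2, and with DESeq2. KIF5C, also mainly neuronal, was at 61.8, 53.7 and 58.0 CPM and at 56.0, 53.8 and 54.5 CPM, and its groups overlapped (log2 difference −0.078, SE 0.045). Of the summed TPM of the heavy chains, KIF5B made up 85.2 ± 0.379% in siControl and 70.0 ± 0.731% in siPOLR3A, and the sum itself was 92.0 ± 3.93 and 46.8 ± 0.141 TPM. The shares of KIF5C (10.5% and 19.95%) and KIF5A (4.37% and 10.1%) were larger in siPOLR3A.

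The light chains, which link the heavy chains to cargo, differed less than KIF5B. KLC1 was at 122, 128 and 125.02 CPM in siControl and at 123, 124 and 128 CPM in siPOLR3A, with overlapping groups (log2 difference −0.0030, SE 0.028). KLC2 was at 61.9, 66.7 and 61.6 CPM and at 63.0, 62.7 and 63.1 CPM, also overlapping (−0.011, SE 0.035). KLC4 was at 20.7, 20.1 and 20.3 CPM and at 25.98, 24.1 and 27.4 CPM, higher in every siPOLR3A library (0.34, SE 0.055). The signs of the KLC1 and KLC2 differences turned positive under upper quartile scaling (0.056 and 0.048) and with total counts (0.047 and 0.039). With an offset for isoform length KLC1 was at −0.12 and KLC2 at 0.067. KLC1 shares 60.9% of the 31-base words of its main transcript with ENSG00000256500, an overlapping annotation, so that its count is uncertain.

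KIF1C, a kinesin-3 motor of vesicle and integrin transport (GRCh38 chr17:4997948-5028401), was at 216, 223 and 216 CPM in siControl and at 92.0, 90.9 and 91.1 CPM in siPOLR3A. All siPOLR3A libraries lay under all controls, a log2 difference of −1.26 (SE 0.026). Its 3 leading transcripts were all lower: KIF1C-201 was at 31.7 and 13.6 TPM, KIF1C-204 at 23.6 and 8.51 TPM, and KIF1C-203 at 24.8 and 9.67 TPM. Its relatives of the kinesin-3 family went different ways. KIF13A, a motor of endosomal and melanosomal cargo, was at 61.8, 65.4 and 59.3 CPM and at 50.5, 50.8 and 50.5 CPM (−0.30, SE 0.038). KIF1A, the carrier of synaptic vesicle precursors, was at 89.6 CPM on average in siControl and 107 CPM in siPOLR3A (0.26, SE 0.036), without overlap. KIF1B, which carries mitochondria or synaptic vesicle precursors depending on the isoform, was at 99.8 and 121 CPM (0.28, SE 0.034). That difference changed sign to −0.098 when neighbouring transcripts absent from the annotation were included. The transcript KIF1B-205 was higher (14.0 and 17.3 TPM), and an unmatched transcript of 10855 bases was lower (13.6 and 9.83 TPM). KIF16B and KIF13B overlapped between the groups, with log2 differences of −0.048 and −0.013.

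**Figure D2:**
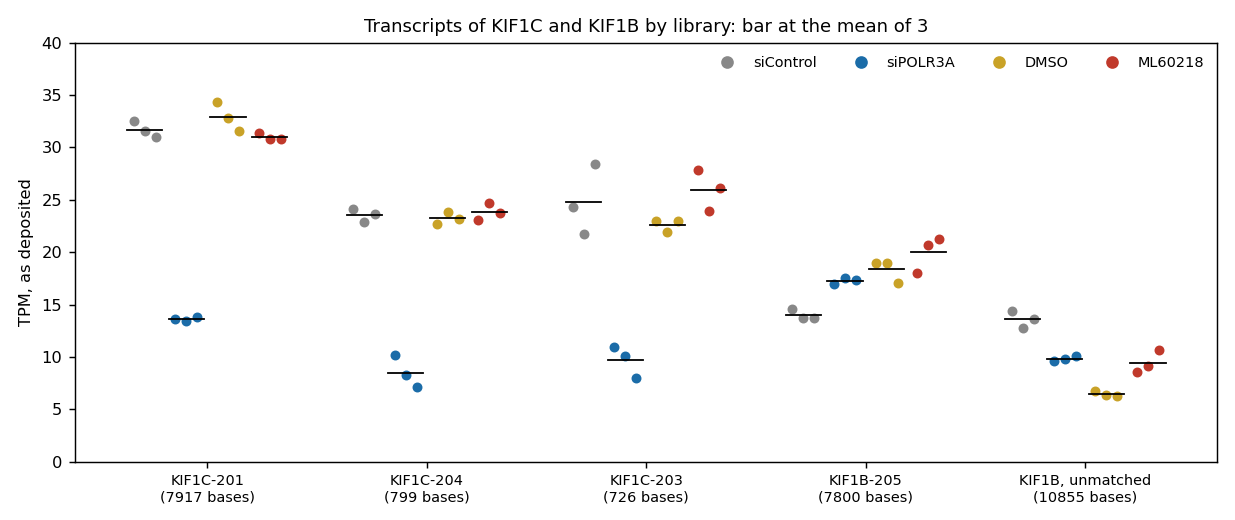
TPM in each library of the leading transcripts of KIF1C and KIF1B, with transcript lengths in bases and bars at the mean of 3 libraries. All KIF1C transcripts are lower in siPOLR3A than in siControl, whereas KIF1B-205 is higher (14.0 and 17.3 TPM) and the unmatched 10855-base transcript lower (13.6 and 9.83 TPM).

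Kinesin-2 is a trimer of KIF3A with KIF3B or KIF3C and the adaptor KIFAP3, and it drives transport toward the tip of the cilium. KIF3C was at 25.4, 24.7 and 26.6 CPM in siControl and at 15.9, 16.2 and 16.3 CPM in siPOLR3A (log2 difference −0.66, SE 0.052). KIF3B was at 82.7, 86.4 and 83.5 CPM and at 66.9, 68.3 and 66.5 CPM (−0.33, SE 0.030). KIFAP3 was at 57.4 and 49.0 CPM on average (−0.23, SE 0.034). In contrast with these subunits, KIF3A was slightly higher, at 87.0 and 93.3 CPM (0.10, SE 0.027; 0.16 under upper quartile scaling), and none of these groups overlapped. By TPM, KIF3A made up 48.6 ± 1.36% of the kinesin-2 motors in siControl and 57.9 ± 1.44% in siPOLR3A, and KIF3C 17.0 ± 0.519% and 12.1 ± 1.31%. Of the remaining transport genes, KIFC3, a minus-end motor of epithelial cells, was at 5.92, 5.12 and 5.39 CPM and at 9.19, 8.54 and 9.70 CPM (0.74, SE 0.088). KIF21A, a regulator of microtubule growth at the cell cortex, differed by −0.13, and KIF21B overlapped. The KIF21A value was −0.070 under upper quartile scaling and −0.20 with an offset for isoform length.

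**Figure D3:**
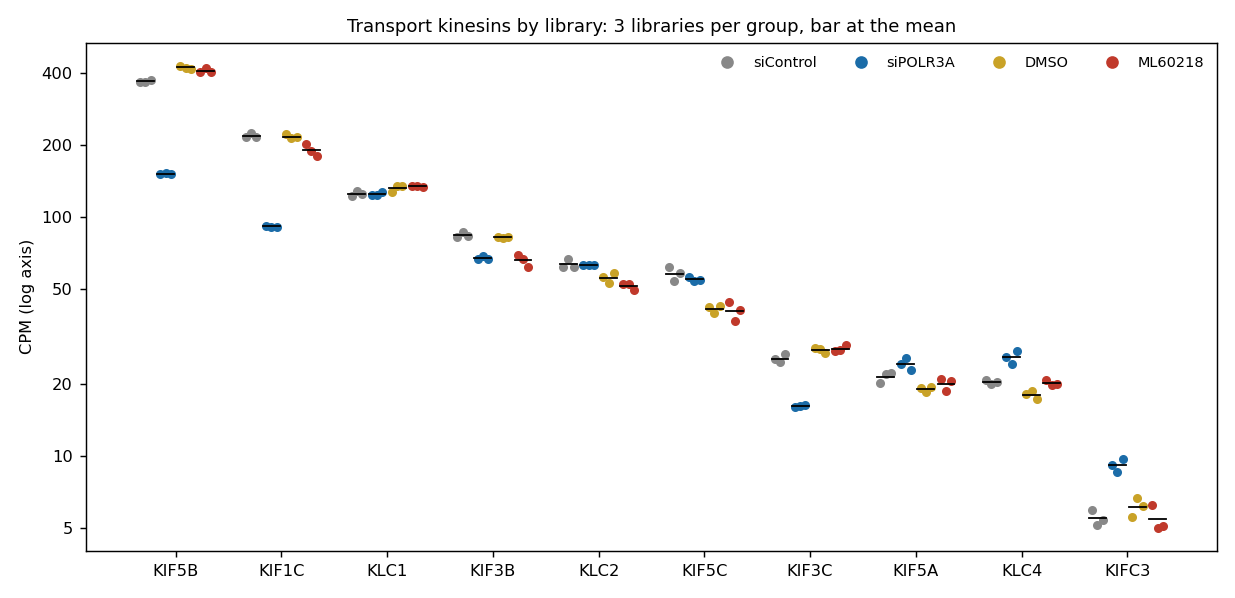
CPM on a log axis for 10 transport genes in each of the 12 libraries, with bars at the mean of 3. The siPOLR3A libraries lie well under the siControl libraries for KIF5B, KIF1C and KIF3C and above them for KLC4 and KIFC3, while KLC1 and KLC2 overlap.

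Copies of the 6-base sequence GAGGGA in 3′ UTRs are shown for transport genes that were lower in siPOLR3A, because this sequence, with GACGTA, was counted in an earlier analysis of these data after values had been seen. Both were searched on the transcript strand in 1 GENCODE release 29 transcript per gene, whose version differs from that of the quantified transcript for some genes. For members this was the annotated coding transcript with the highest mean TPM. For the shares over all genes and over UTRs of similar length it was the one with the longest 3′ UTR. These shares are therefore not like for like with the members, whose UTRs ran from 0 bases (KIF26A) to 4250 bases (KIF1C). The windows of KIF5B, KIF1C and KIF3B are given 5′ to 3′ with the matches in capitals.
KIF5B: ggcatcttagGAGGGAaaaaggacag
KIF1C, first copy: aggggaggtaGAGGGAccgccagcct
KIF1C, second copy: ctggaggtcaGAGGGAgctgagttga
KIF3B, first copy: gactggagttGAGGGAaggagctgta
KIF3B, second copy: caagcccactGAGGGActaggttttc
KIF3B, last copy: aaaatgctctGAGGGAactggctaag
KIF3C, KIF13A, KIFAP3 and KIF21A, also lower in siPOLR3A, held 0 copies. Among 3′ UTRs within 20% of the same length, 51.9% held GAGGGA for KIF5B, 67.5% for KIF1C, 61.2% for KIF3B and 50.6% for KIF3C. It was held by 12 of the 37 members scanned, beside 35.9% of 18506 genes, and also by KIF1A, KIF1B and KIF5A, which were higher in siPOLR3A. GACGTA was held by KLC1 alone among the members, beside 4.15% of all genes. A match is a description of letters and not a site.

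Mitotic kinesins differed little between the siRNA groups, from −0.25 to 0.30 on the log2 scale. KIF4A, a chromosome-arm and midzone motor, was at 79.7, 84.7 and 81.9 CPM in siControl and at 97.0, 104 and 102 CPM in siPOLR3A (0.30, SE 0.034). KIF23, the motor subunit of centralspindlin in cytokinesis, was at 119, 126 and 126 CPM and at 144, 154 and 146 CPM (0.26, SE 0.032). KIF2C, which takes microtubules apart at centromeres, was at 88.7, 87.6 and 88.2 CPM and at 77.4, 77.4 and 76.7 CPM (−0.19, SE 0.027). The groups were apart for each of these genes. KIF18A, KIF18B and KIF20B differed little (−0.092, 0.078 and −0.058), and these values depended on the setting. KIF18A was at −0.032 under upper quartile scaling and −0.042 with total counts. KIF18B was at 0.14 and 0.13 under these scalings and at 0.25 with an offset for isoform length. KIF20A (0.0015), KIF14 (0.0087), KIF11 (0.086), KIF2A (0.098), KIFC1 (−0.077) and KIF22 (−0.25, SE 0.12) overlapped between the groups. Over all libraries, 71.5% of the reads at the KIF2A locus and 46.3% at that of KIF22 were on transcripts absent from the annotation. With neighbouring transcripts included, 4 mitotic genes were called lower, against 3 without them. In the cilium and signalling class, KIF26A, a kinesin without motor activity, was at 15.6, 20.2 and 17.8 CPM and at 24.8, 24.5 and 24.2 CPM (0.45, SE 0.079). KIF9, an axonemal kinesin, was at 4.70, 4.34 and 3.37 CPM and at 5.87, 5.79 and 5.68 CPM (0.49, SE 0.12). KIF7, KIF24, KIF26B and KIF27 were not called.

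Partner genes were given in lists for the same contrast, again without tests of the lists and beside 27.4% higher and 29.2% lower among all genes. Of 21 adaptors and cofactors of kinesin-1 that passed the filter, 5 were called higher and 13 lower (median −0.14). MAPK8IP2, a JNK scaffold that binds light chains, was at 10.9 CPM in siControl and 43.1 CPM in siPOLR3A, and MAP7D2, a microtubule protein that recruits kinesin-1, was at 46.2 and 27.4 CPM. For dynein and dynactin, the machinery of transport in the opposite direction, 8 of 25 were called higher and 9 lower (median −0.0078), among them the dynactin subunit DCTN4 at 167 and 78.0 CPM and the dynein intermediate chain DYNC1I1 at 3.77 and 2.16 CPM. Intraflagellar transport genes were called higher and lower in 5 cases each of 22 (median 0.015), with TTC21B at −0.66 (−0.25 with neighbouring transcripts) and TTC30A at 0.34. Of 25 spindle partners and G2/M genes, 6 were higher and 12 lower (median −0.061), with CIT at 0.85 (0.51 with an offset for isoform length) and PRC1 at −0.45. Among 11 further genes tested, for other kinesins and a kinesin-binding protein, 4 were higher and 1, the binding protein, lower (median 0.26). KIFC2 was at 0.67 and KLC3 at 0.56.

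With ML60218, 7 of the 12 mitotic kinesins fell in CPM, among them KIF20A by 1.30-fold and KIFC1 by 1.29-fold, and 1 rose. By TPM, KIF14 and KIF4A of these 7 overlapped between the groups. Under upper quartile and total-count scaling 5 of the 12 fell. The transport kinesins, KIF5B among them, mostly did not pass the test, with 2 of 19 higher and 2 lower. By edgeR's quasi-likelihood test with Benjamini-Hochberg adjustment, 15 of the 37 members were called, 5 higher and 10 lower, beside 18.1% higher and 20.9% lower among 15461 genes (39% in either direction). Groups did not overlap for 18 members, beside 51.9% of all genes, and no member was called at 2-fold or more, beside 1.32%. With another scaling of the libraries the split moved from 5 higher and 10 lower to 7 and 8 (upper quartile) or 8 and 8 (total counts). The median log2 fold change was −0.11 over the mitotic class (−0.071 under upper quartile scaling and −0.039 with total counts, which moved the median of all genes to 0.045 and 0.076), 0.020 over the transport class, 0.18 over the cilium and signalling class and 0.0054 over all genes.

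KIF23, the cytokinesis motor, fell from 116, 118 and 119 CPM in DMSO to 90.3, 85.3 and 74.3 CPM in ML60218. All ML60218 libraries lay under all DMSO libraries, a log2 fold change of −0.49 (SE 0.064, edgeR adjusted p = 0.000797). With a neighbouring unmatched transcript included, which held 21.2% of the reads at the locus, the fold change was −0.22 (edgeR adjusted p = 0.000895), smaller in size than those of KIF20A and KIFC1. This transcript was at 9.67 ± 0.506 TPM in DMSO and 14.8 ± 2.08 TPM in ML60218, and the annotated KIF23-202 at 22.9 ± 0.462 and 18.8 ± 0.973 TPM. KIF20A, which acts in the central spindle and brings the chromosomal passenger complex there, fell from 134, 132 and 128 CPM to 105, 101 and 97.9 CPM (−0.37, SE 0.037, edgeR adjusted p = 0.000188). KIFC1, a minus-end motor that focuses spindle poles, fell from 55.8, 58.7 and 59.7 CPM to 47.2, 45.5 and 43.0 CPM (−0.36, SE 0.048, edgeR adjusted p = 0.000545). KIF18B, which shortens astral microtubules, fell from 92.1, 89.0 and 88.9 CPM to 80.5, 70.8 and 67.1 CPM (−0.31, SE 0.062, edgeR adjusted p = 0.00467). The groups were apart for each of these genes. KIF2C fell from 98.2, 98.0 and 98.4 CPM to 91.0, 86.6 and 83.5 CPM (−0.17, edgeR adjusted p = 0.00622), and its value was −0.10 with total counts.

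KIF14, a cytokinesis motor that binds citron kinase, was at 109 CPM in DMSO and 99.6 CPM in ML60218 (−0.13, edgeR adjusted p = 0.0159). KIF4A was at 118 and 111 CPM (−0.087, edgeR adjusted p = 0.0485). KIF14 lost its call without DMSO replicate 2 or 3, under upper quartile scaling (−0.093) and with total counts (−0.062). KIF4A lost its call under 11 alternatives: without any 1 of DMSO replicates 1 to 3 or ML60218 replicates 2 and 3, under RLE (−0.083), upper quartile (−0.048) and total-count scaling (−0.017), with no filter, with DESeq2 and with a replicate block. KIF4A shares 27.9% of the 31-base words of its transcript with its near-copy KIF4B, which was at 0.724 and 0.922 CPM. KIF2A, a depolymerase of spindle poles and of neurons, rose from 57.1, 61.7 and 56.4 CPM to 65.9, 62.9 and 65.7 CPM (0.15, edgeR adjusted p = 0.0243). That call was lost without DMSO replicate 1 or 3 and with a replicate block, and 71.5% of the reads at its locus were on transcripts absent from the annotation. KIF11, the motor that pushes spindle poles apart, was at 236 and 223 CPM (−0.084, edgeR adjusted p = 0.1895), and KIF20B, KIF18A and KIF22 did not pass the test either. For KIF22, 46.3% of the reads at its locus were on transcripts absent from the annotation. All 7 genes called lower had their lowest CPM in ML60218 replicate 3. Without that library, 6 of the 12 were called lower, and without DMSO replicate 2 or 3, 5 were. The median over the class was −0.12, −0.087 and −0.14 in the ML60218 replicates taken singly.

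**Figure D4:**
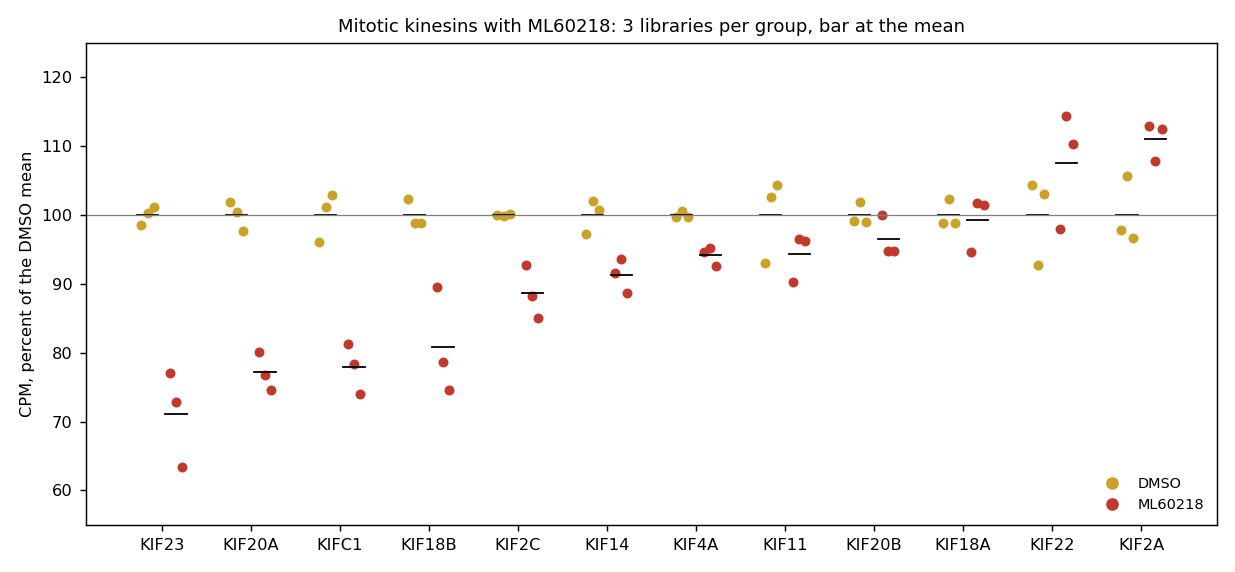
CPM of the 12 mitotic kinesin genes in each DMSO and ML60218 library, as a percentage of the DMSO mean, with bars at the mean of 3. KIF23, KIF20A, KIFC1 and KIF18B lie lowest with ML60218, and KIF2A lies above its DMSO libraries.

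Promoters of 2 mitotic genes that fell are shown, with that of KIF5B, because motifs of genes expressed in G2 and M were searched in all members. RefSeq promoters (GRCh38.p14, 250 bases before to 50 after the start) were matched for 29 of the 38 genes. For some genes of each class, the bases after the start were not found near the 5′ end of a GENCODE release 29 transcript. Among mitotic genes these were KIF11, KIF14, KIF18B and KIF20B, so that the place of their windows is uncertain. The bases were found for the promoters shown. Each was searched on both strands for TTTGAA, the core of a cell cycle homology element of genes expressed in G2 and M, and for CCAAT, the box bound by NF-Y. Matches are in capitals, where ATTGG and TTCAAA are the same motifs on the other strand, and the sequences run 5′ to 3′ on the strand of the gene.
KIF23, chr15:69414099-69414398, plus strand: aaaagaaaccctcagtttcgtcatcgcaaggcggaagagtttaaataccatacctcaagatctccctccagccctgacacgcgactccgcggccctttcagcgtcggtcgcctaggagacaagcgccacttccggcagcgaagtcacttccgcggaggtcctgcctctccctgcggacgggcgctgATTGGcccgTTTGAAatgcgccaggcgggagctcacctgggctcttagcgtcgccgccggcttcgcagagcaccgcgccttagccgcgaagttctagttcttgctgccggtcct
KIFC1, chr6:33391573-33391872, plus strand: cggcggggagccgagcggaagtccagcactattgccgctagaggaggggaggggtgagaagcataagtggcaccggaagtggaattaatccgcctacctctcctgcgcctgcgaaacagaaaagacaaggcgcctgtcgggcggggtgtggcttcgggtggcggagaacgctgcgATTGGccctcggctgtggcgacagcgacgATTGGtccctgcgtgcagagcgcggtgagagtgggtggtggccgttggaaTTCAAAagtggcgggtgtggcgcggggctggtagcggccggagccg
KIF5B, chr10:32056376-32056675, minus strand: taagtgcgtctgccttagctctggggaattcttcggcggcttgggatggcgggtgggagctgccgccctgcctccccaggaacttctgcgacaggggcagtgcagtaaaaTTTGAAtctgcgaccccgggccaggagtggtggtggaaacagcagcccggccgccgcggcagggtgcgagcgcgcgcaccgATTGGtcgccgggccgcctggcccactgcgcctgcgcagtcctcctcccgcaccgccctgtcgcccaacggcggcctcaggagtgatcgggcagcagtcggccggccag
Both motifs were found in 8 of 12 mitotic promoters, 1 of 13 transport promoters (that of KIF5B, shown for this reason) and 0 of 4 in the cilium and signalling class, beside 6.08% of 27305 promoters. TTTGAA alone was in 8 of 12 mitotic promoters (15.4% of all promoters) and CCAAT in 10 of 12 (35.7% of all). Of the 7 mitotic genes called lower with ML60218, 5 held both motifs (KIF23, KIFC1, KIF18B, KIF14 and KIF4A) and KIF20A and KIF2C lacked TTTGAA. Of the 5 not called lower, 3 held both (KIF11, KIF18A and KIF20B). A match describes letters in this window and nothing about a factor.

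Of 25 genes of the spindle and of G2/M, 17 fell and 1, CIT, rose with ML60218 (median −0.19), by edgeR's quasi-likelihood test with Benjamini-Hochberg adjustment, beside 20.9% lower and 18.1% higher among all genes. The other 7, among them PRC1, HMMR, ASPM and MKI67, did not pass the test. The classes and lists were chosen with earlier results of these data known, so that their counts with ML60218 are a description. AURKA, the kinase of spindle poles, fell from 136 to 91.9 CPM (−0.57, edgeR adjusted p = 0.000239), and CDCA8, a subunit of the chromosomal passenger complex that KIF20A carries, from 79.1 to 55.8 CPM (−0.50, edgeR adjusted p = 7.86e-05). CENPE, a kinetochore kinesin outside the members, was at 154 and 159 CPM and did not pass the test. In these bulk libraries, fewer cells in G2 and mitosis and less RNA per cell cannot be told apart, and the part of the cell cycle in these falls was not tested.

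The heavy and light chains of kinesin-1 showed small differences with ML60218. KIF5B was at 429, 421 and 418 CPM in DMSO and at 403, 421 and 404 CPM in ML60218. Its groups overlapped, and the log2 fold change was −0.047, with an approximate 95% interval of −0.11 to 0.014. That interval assumes a normal spread and is narrower than the test with 3 libraries per group implies. The fold change did not pass the test (edgeR adjusted p = 0.267). With total counts the value was 0.024. KIF5A was at 19.2, 18.5 and 19.4 CPM and at 21.0, 18.7 and 20.6 CPM (0.078), and KIF5C at 41.9, 39.6 and 42.6 CPM and at 44.2, 36.6 and 40.6 CPM (−0.031), both with overlapping groups. The share of KIF5B in the summed TPM of the heavy chains was 89.4 ± 0.431% in DMSO and 89.1 ± 1.07% in ML60218. KLC1 was at 128, 135 and 134 CPM and at 135, 134 and 133 CPM (0.020), overlapping. KLC2 was at 56.1, 52.9 and 58.0 CPM and at 52.6, 52.6 and 49.6 CPM, just apart, and missed the threshold (−0.11, edgeR adjusted p = 0.0896; −0.040 with total counts). KLC4 was higher, at 18.1, 18.6 and 17.3 CPM and at 20.9, 19.9 and 20.1 CPM (0.17, SE 0.056, edgeR adjusted p = 0.0353). The call was lost when any 1 library was left out, with no filter, with DESeq2 and with a replicate block.

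Of the other transport motors, 3 passed the test. KIF3B fell from 82.7, 82.0 and 82.0 CPM to 69.1, 66.9 and 61.7 CPM (−0.32, SE 0.045, edgeR adjusted p = 0.000707), whereas its partners KIF3A (−0.0058), KIF3C (0.017) and KIFAP3 (0.079) did not pass. KIF1C fell from 222, 213 and 215 CPM to 202, 188 and 180.1 CPM (−0.19, SE 0.042, edgeR adjusted p = 0.00606), and with an offset for isoform length its value was −0.085 (edgeR adjusted p = 0.180). Its summed TPM was 80.0 ± 1.04 in DMSO and 82.5 ± 1.51 in ML60218. KIF21A rose from 94.7, 94.2 and 90.7 CPM to 105, 107 and 109 CPM (0.20, SE 0.035, edgeR adjusted p = 0.00186). The CPM of these 3 genes did not overlap between groups. Of those not called, KIF21B was apart between groups (0.17, edgeR adjusted p = 0.0860). KIFC3, KIF1A, KIF1B, KIF13A, KIF13B and KIF16B overlapped, with log2 fold changes from −0.18 to 0.11. For KIF1B, 42.8% of the reads at its locus were on transcripts absent from the annotation. The 10855-base one was at 6.49 ± 0.240 TPM in DMSO and 9.46 ± 1.04 TPM in ML60218. With neighbouring transcripts included, 3 of the 19 transport genes were called higher, against 2 without them.

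Among cilium and signalling kinesins, 2 rose and 1 fell with ML60218. KIF27, a relative of the Hedgehog regulator KIF7, rose from 10.3, 10.7 and 10.1 CPM to 15.5, 13.9 and 17.8 CPM (0.60, SE 0.091, edgeR adjusted p = 0.00100), the largest rise of any member. Its count is uncertain in part, since the 1030-base transcript KIF27-203 shares 41.8% of its 31-base words with ENSG00000165121. The 7257-base KIF27-201, whose words were not searched, was at 1.27 ± 0.063 TPM in DMSO and 2.15 ± 0.303 TPM in ML60218. KIF24, which restrains cilium assembly at the mother centriole, rose from 21.8, 20.4 and 19.98 CPM to 22.2, 24.8 and 27.7 CPM (0.27, edgeR adjusted p = 0.0239). That call was lost without DMSO replicate 2 or 3 or ML60218 replicate 2 or 3, with a replicate block and with an offset for isoform length. KIF26A fell from 29.7, 30.4 and 27.6 CPM to 23.8, 26.1 and 23.0 CPM (−0.27, SE 0.061, edgeR adjusted p = 0.00746). KIF7 (0.10), KIF9 (−0.013) and KIF26B (0.31) did not pass. In the intraflagellar transport list, whose proteins form the trains that kinesin-2 pulls, 13 of 22 genes rose and 1 fell (median 0.21), beside 18.1% higher and 20.9% lower among all genes. CLUAP1 rose from 23.7 to 36.2 CPM (0.61, edgeR adjusted p = 0.000104) and TTC30A by 0.41 on the log2 scale.

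The remaining lists are given beside the same 18.1% higher and 20.9% lower among all genes with ML60218. Of 26 dynein and dynactin genes, 3 rose and 10 fell (median −0.070), among them the light chain DYNLL1 (−0.69) and the adaptor BICD2 (−0.50). Of 21 adaptors and cofactors of kinesin-1, 3 rose and 6 fell (median 0.014), with MAPK8IP2 at −0.27 and SPAG9 at 0.21 (0.46 with an offset for isoform length). Of 11 further genes, for other kinesins and the kinesin-binding protein KIFBP, 1 rose and 1, KIFBP, fell (median 0.16). KIFBP, which binds and inhibits several kinesin motor domains, fell by 0.31 on the log2 scale, and STARD9 was higher by 0.26, a call lost without any 1 of 5 libraries and with an offset for isoform length (0.099).

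**Figure D5:**
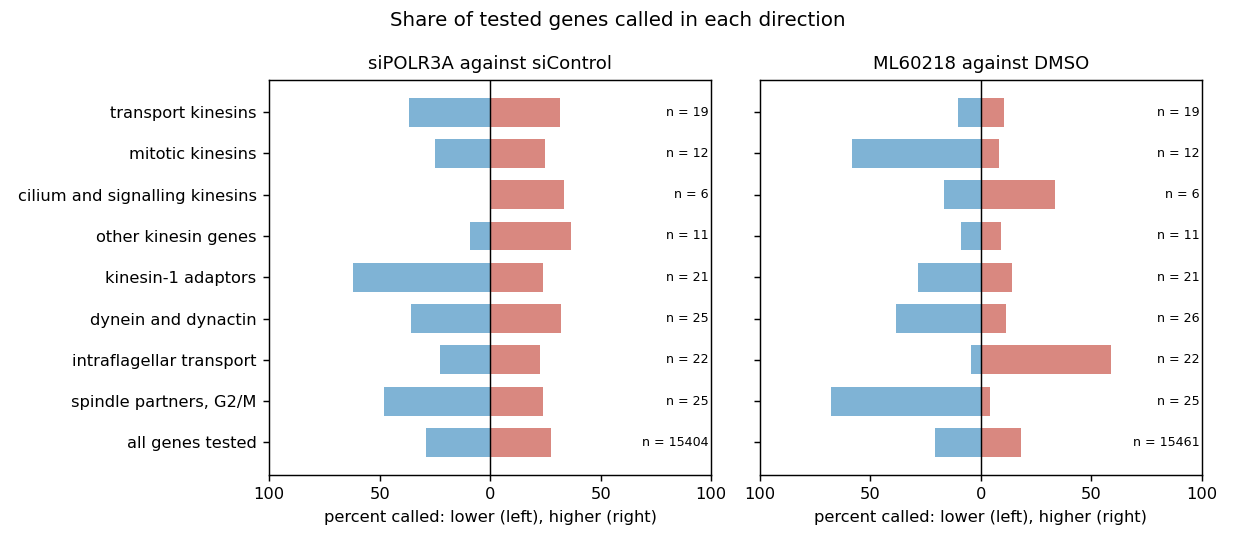
Percentage of tested genes called higher (right of 0) and lower (left of 0) in each class of kinesins, in each partner list and over all genes, for both comparisons. With ML60218 the mitotic kinesins (7 of 12 lower) and the spindle partners (17 of 25 lower) extend left, and the intraflagellar transport genes (13 of 22 higher) extend right.

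Side by side, the comparisons use different control libraries and differ in time, and the difference between their effects was not tested. The siRNA values remain a description here. KIF1C was at −1.26 on the log2 scale after the siRNA and −0.19 with ML60218, KIF3B at −0.33 and −0.32, KIF2C at −0.19 and −0.17, and KLC4 at 0.34 and 0.17, each with the same sign in both. KIF23 was at 0.26 and −0.49, KIF26A at 0.45 and −0.27, and KIF21A at −0.13 and 0.20, with opposite signs. Signs were also opposite for KIF4A (0.30 and −0.087) and KIF18B (0.078 and −0.31). The call of KIF4A with ML60218 and that of KIF18B after the siRNA depended on the setting. KIF5B was at −1.28 and −0.047, and KIF3C at −0.66 and 0.017. KIF20A was at 0.0015 and −0.37, KIFC1 at −0.077 and −0.36, and KIF27 at −0.15 and 0.60. The median of the transport class minus that of the mitotic class was −0.018 on the log2 scale after the siRNA and 0.13 with ML60218.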

How the data were processed

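Messenger RNA was sequenced from 12 HEK293T libraries with a stranded kit, per the labels' protocols. The table the authors deposited held estimated counts and TPM for each of 194142 transcripts, and per the file headers its columns are those of salmon, whose version and transcript release are not given in the sources used here. Per the submitters' processing notes, bcl2fastq 2.20, Trim Galore, DESeq2 and build hg38 were used. Groups and replicate numbers came from the sample titles.

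The deposited estimated counts were matched to GENCODE release 29 by transcript identifier (158359 transcripts, 81.6%), added up over the transcripts of a gene and rounded, since the design had assumed counts per gene. Unmatched transcripts held 8.37% to 8.97% of the reads and stayed out. Each comparison was fitted on its 6 libraries over all genes with edgeR 4.0.16 in R 4.3.3 (filterByExpr, minimum count 10 and minimum total 15; TMM scaling; robust two-sided quasi-likelihood test; Benjamini-Hochberg adjustment, calls under 0.05). The scripts were tested on simulated data. No replicate pair within a group agreed within sampling noise. For 3 against 3 libraries the smallest exact permutation p is 0.1. The TPM the authors deposited were summed per gene for levels between genes. Depth was 37008325 to 49479476 estimated reads per library.

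The members, classes and lists (other kinesins, dynein and dynactin, kinesin-1 adaptors, intraflagellar transport, spindle partners, and markers of HEK293T, kidney tubule, fibroblast and leukocyte) were chosen with earlier results of these data known. CLSTN3, BORCS5 and IFT56 of the lists were not analysed here, and 1 further marker is not reported here. Values in every library are given for kinesin-1 and for the called members with the largest changes without overlap (6 in the transport and mitotic classes, 3 in the cilium class), and 2 called genes are named per list. Alternatives were RLE, upper quartile or total-count scaling, no filter, DESeq2 1.42.0, a replicate block, neighbouring transcripts, an offset for isoform length, KIF2A left out of its class and leaving out each library.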

Additional observations from a re-analysis of the deposited data

How the results depend on the processing

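The number of members called ranged from 17 to 22 for siPOLR3A against siControl (21 as reported) and from 10 to 16 for ML60218 against DMSO (15), all within 1.5 times, and the transport minus mitotic median with ML60218 from 0.11 to 0.17. After the siRNA that median difference (−0.018) moved to −0.053 with neighbouring transcripts, to −0.062 with an isoform length offset, and lay between −0.037 and −0.018 with single libraries left out. POLR3A lay between −2.43 and −2.02. Replicate numbers did not pair the libraries: deviations of same-numbered libraries correlated at −0.029, 0.044 and −0.11 (siRNA) and −0.024, 0.058 and −0.046 (compound), and with a replicate block 20 and 11 members were called. Signs reversed as follows, and the cause was not tested. After the siRNA, KLC1 was 0.056 (upper quartile), 0.047 (total counts) and −0.019 to 0.013 with single libraries left out; KLC2 was 0.048, 0.039, 0.067 (length offset) and −0.030 to 0.026; KIF20B was 0.0018 (upper quartile) and −0.064 to −0.052; KIF1B was −0.098 (neighbouring transcripts) and 0.25 to 0.31. With ML60218, KIF5C was 0.0087 (upper quartile), 0.040 (total counts) and −0.098 to 0.035, KIF5B 0.024 (total counts) and −0.068 to −0.036, and KLC1 −0.019 (length offset) and −0.0057 to 0.033. KIF5C was called after the siRNA without siControl replicate 2 (−0.13). Of the named genes, 26 of 34 and 20 of 30 kept direction and call throughout. Depth limits the low genes most: KIF26B, KIF9 and KIFC3 were under 10 CPM.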
